A study of Homo sapiens with 12 samples.

Results

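The unfolded protein response and the integrated stress response were followed as 50 genes in an epirubicin-resistant breast cancer line and after silencing of BCRP in that line. The members were a list of gene symbols, matched in GENCODE 29 to the Ensembl identifiers of the deposited tables. The rule itself uses no measured value, but the list was drawn up with earlier results of these data known. All 50 were found among the 58735 genes of the tables, and 49 had enough reads to be tested in each comparison. FGF21, the remaining member, had between 0 and 6 reads in every library. The ER arm held 23 members, the core arm of the integrated stress response (ISR) 14, the amino acid arm 6 and the mitochondrial arm 7.

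RNA-seq was made from 12 libraries, 3 in each of 4 groups. SK-BR-3 is an established HER2-amplified human breast cancer line, and SK/EPI is the line raised from it by a long stepwise exposure to rising doses of epirubicin, an anthracycline that poisons topoisomerase II. SK/EPI-siBCRP and SK/EPI-siControl are SK/EPI cells 48 h after transfection with an siRNA against BCRP, the efflux transporter encoded by ABCG2, or with a control siRNA that the labels call siNC. All 4 groups thus go back to SK-BR-3, the resistant state is represented by 1 derived line, and the labels do not say whether epirubicin was in the medium at harvest. The libraries of a group are called triplicates and nothing says that they came from separate cultures, so the p-values below measure the spread between these libraries, which may be technical.

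When unfolded proteins build up in the endoplasmic reticulum (ER), the chaperone BiP leaves the sensors IRE1 (gene ERN1), ATF6 and PERK (gene EIF2AK3). IRE1 splices the XBP1 mRNA into the form that encodes an active factor, ATF6 is cleaved to release another, and together they raise chaperones and the machinery that carries misfolded proteins out for degradation. PERK joins HRI (EIF2AK1), GCN2 (EIF2AK4) and PKR (EIF2AK2, no member of the list) in phosphorylating eIF2α, which slows translation in general but favours translation of ATF4, the factor at the centre of the integrated stress response. ATF4 and its partners raise DDIT3 (CHOP), amino acid synthesis and transport, and enzymes of mitochondrial folate and proline metabolism, and HRI also relays stress of the mitochondria. Splicing of XBP1, cleavage of ATF6, phosphorylation of eIF2α and translation of ATF4 are not visible in gene-level FPKM, so all values below are mRNA levels.

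The promoters of the ER chaperones are shown first, because they carry the letters by which the ER arm and the ATF4 targets are told apart in textbooks. In RefSeq promoter windows (GRCh38.p14, 250 bases before to 50 bases after the gene's start), which were found for 44 of the 50 members, 3 motifs were searched on both strands. The ER stress element, written as CCAAT and CCACG with 9 bases between, was in the windows of HSPA5, HSP90B1, CALR, CANX, CRELD2 and XBP1, which is 6 of 22 ER arm promoters (27.3%) against 22 of 27305 promoters in all (0.08%), and in no window of the other arms. A match is a description of these letters only. The stretches around it follow with the motif in capitals, on the strand of the gene, so that a reverse match begins with CGTGG:
HSPA5, chr9:125241376-125241424, minus strand: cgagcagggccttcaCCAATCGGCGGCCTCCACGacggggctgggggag
HSP90B1, chr12:103930201-103930249, plus strand: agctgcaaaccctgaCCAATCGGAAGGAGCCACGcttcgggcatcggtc
CALR, chr19:12938369-12938417, plus strand: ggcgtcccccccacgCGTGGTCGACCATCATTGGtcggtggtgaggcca
CANX, chr5:179698763-179698811, plus strand: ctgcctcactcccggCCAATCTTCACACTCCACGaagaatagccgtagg
CRELD2, chr22:49918539-49918587, plus strand: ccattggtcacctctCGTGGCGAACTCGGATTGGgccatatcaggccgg
XBP1, chr22:28800588-28800636, minus strand: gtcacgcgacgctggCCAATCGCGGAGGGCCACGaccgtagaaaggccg

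HSP90B1 held a further copy of the element nearer to its start. The C/EBP-ATF element TGATGNAA, to which ATF4 dimers are known to bind, was in the windows of HERPUD1, ATF3, CHAC1, ASNS, SLC3A2 and FGF21, 6 of 44 members (13.6%) against 3.67% of all promoters. The UPR element TGACGTGG was in those of HYOU1 and ALDH18A1, 2 of 44 (4.5%) against 0.79% of all. The 3 members below carry the C/EBP-ATF element in capitals upstream of the start and belong to the ATF4 side of the list:
ATF3, chr1:212565201-212565238, plus strand: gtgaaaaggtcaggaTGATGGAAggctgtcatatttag
CHAC1, chr15:40953247-40953284, plus strand: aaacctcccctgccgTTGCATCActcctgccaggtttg
ASNS, chr7:97872454-97872491, minus strand: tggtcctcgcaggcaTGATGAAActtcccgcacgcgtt

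The libraries held 15830381 to 20545811 reads on genes. The summed FPKM of the 6 luminal and HER2 markers (ERBB2, GRB7, KRT8, KRT18, KRT19, EPCAM) was 3536 to 3732 in SK-BR-3, 2206 to 2324 in SK/EPI, 2610 to 2658 in SK/EPI-siControl and 2180 to 2219 in SK/EPI-siBCRP, so the sum moved with both comparisons. Its genes did not move as one in SK/EPI against SK-BR-3. KRT19 (1581 to 1719 FPKM in SK-BR-3, 498 to 519 in SK/EPI), ERBB2 (652 to 663 and 129 to 136) and GRB7 (106 to 115 and 44.3 to 46.8) lay lower in SK/EPI, KRT8 (733 to 793 and 870.4 to 928) and KRT18 (349 to 367 and 578 to 614) lay higher, and EPCAM overlapped (85.4 to 88.0 and 86.5 to 96.1). In SK/EPI-siBCRP all 6 lay below SK/EPI-siControl without overlap. The part of these levels in the results was not tested. Of the 11 markers of fibroblasts, leukocytes and endothelium, CD14, CDH5 and COL1A1 passed 1 FPKM in any group. CD14 was at 0.47 to 0.57 FPKM in SK-BR-3, 26.6 to 28.1 in SK/EPI, 6.12 to 7.24 in SK/EPI-siControl and 7.66 to 8.45 in SK/EPI-siBCRP. CDH5 passed 1 FPKM in every group, at 6.61 to 6.88, 26.8 to 27.9, 13.7 to 13.9 and 22.0 to 22.3 in the same order. COL1A1 was highest in SK-BR-3, at up to 1.601. The other 8, among them PTPRC, CD3E, LYZ, PECAM1 and VWF, stayed under 1 FPKM in all 12 libraries. The values were deposited in 1 table per comparison and scaled separately in each, so levels are set side by side across them without a test.

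In SK/EPI compared with SK-BR-3, the ER arm was lower and the ISR core arm was higher. Among the ER arm, 18 of 23 members were lower and 2 higher, with a median log2 fold change of -0.53. Among the ISR core arm, 12 of 14 were higher and none lower, with a median of 0.40. The mitochondrial arm had 5 of its 6 tested members higher and 1 lower, at a median of 0.16, and the amino acid arm had 3 higher and 2 lower of 6, at a median of 0.13. Over all 15823 genes tested the median was 0.008, and 37.9% of genes were higher and 37.0% lower, by limma with Benjamini-Hochberg adjustment at 0.05, so the 22 members higher and 21 lower of 49 (44.9% and 42.9%) lay near the background as a whole, while 78.3% of the ER arm was lower and 85.7% of the ISR core arm higher. At a fold change of at least 2 on the log2(FPKM + 1) scale, 5 members were higher and 5 lower, against 7.87% and 6.53% of all genes. The 5 lower members were all of the ER arm, and of the 5 higher members 4 were of the ISR core arm and 1, GDF15, of the mitochondrial arm. No set test was run, and the arms are described by these counts and medians only.

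**Figure D1:**
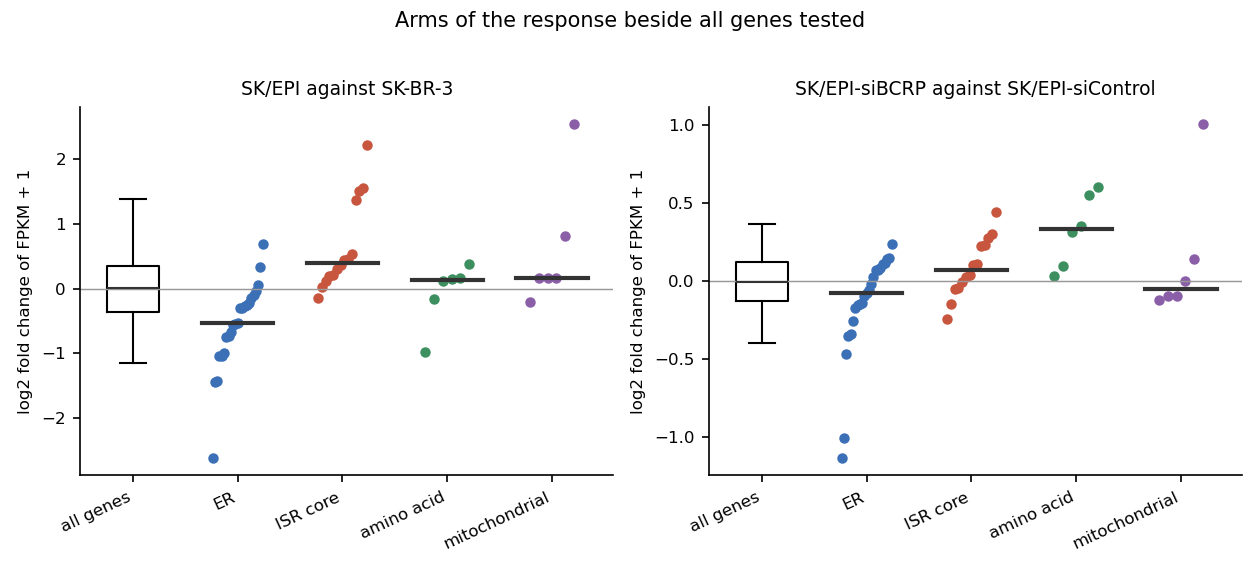
Log2 fold change of FPKM + 1 of each tested member by arm, SK/EPI against SK-BR-3 on the left and SK/EPI-siBCRP against SK/EPI-siControl on the right; points are genes, horizontal lines are medians, and the box shows the 5th, 25th, 50th, 75th and 95th percentiles of all genes tested. On the left most ER arm genes sit below 0 around a median of -0.53 and most ISR core genes above 0 around 0.40; on the right the amino acid arm sits above 0 around a median of 0.33.

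Averaged over the members of the ER arm, the level in log2(FPKM + 1) was 5.50, 5.55 and 5.53 in the 3 SK-BR-3 libraries and 4.93, 4.99 and 4.96 in the 3 SK/EPI libraries. For the ISR core arm the same average was 3.19, 3.25 and 3.19 in SK-BR-3 and 3.87, 3.85 and 3.86 in SK/EPI. The libraries of the groups did not overlap in either average, and the averages moved in opposite directions. The amino acid average was 3.97, 3.98 and 3.92 in SK-BR-3 and 3.88, 3.90 and 3.92 in SK/EPI, overlapping and on the whole lower in SK/EPI, opposite in sign to the median of 0.13. The mitochondrial average was higher without overlap, at 4.12, 4.19 and 4.10 in SK-BR-3 and 4.72, 4.75 and 4.75 in SK/EPI. In that arm GDF15 (log2 fold change 2.54) and PCK2 (0.81) rose most, and the other tested members lay between -0.215 and 0.16.

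ER chaperones and folding factors were mostly lower in SK/EPI, 11 of 14 lower and 1 higher. DNAJC3, the ER co-chaperone P58IPK that also inhibits PERK, stood at 38.9, 39.7 and 44.4 FPKM in SK-BR-3 and at 15.01, 14.2 and 14.7 FPKM in SK/EPI. All SK/EPI libraries lay below all SK-BR-3 libraries, and the fall was the largest among the chaperones (log2 fold change -1.43 ± 0.052 SE, adjusted p = 1.1e-07). HSPA5, which encodes BiP, the main chaperone of the ER lumen, stood at 197, 216 and 211 FPKM in SK-BR-3 and at 135, 143 and 146 FPKM in SK/EPI (log2 fold change -0.55 ± 0.048 SE, adjusted p = 1.6e-05). Its groups did not overlap either, and its mean was 1.47-fold lower in SK/EPI.

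DNAJB9, the co-chaperone that returns BiP to IRE1, was at 20.2, 19.9 and 20.2 FPKM in SK-BR-3 and at 11.3, 12.97 and 12.4 FPKM in SK/EPI (log2 fold change -0.67 ± 0.049 SE, adjusted p = 5.8e-06). Log2 fold changes of -0.999 for SDF2L1, -0.75 for the BiP exchange factor HYOU1, -0.57 for the lectin chaperone calnexin (CANX), -0.31 for DNAJB11, -0.27 for PDIA6, -0.25 for PDIA3, -0.23 for CRELD2 and -0.10 for calreticulin (CALR) completed the lower members. Of these, CALR was near the threshold (adjusted p = 0.0445) and lost its call when any of 5 of the 6 libraries was left out, at an adjusted p of up to 0.133; SK-BR-3 library 3 was the exception. The abundant chaperone HSP90B1 (GRP94) was at 229.8 ± 7.66 FPKM (SD, n = 3) in SK-BR-3 and 238 ± 2.96 FPKM (SD, n = 3) in SK/EPI and was not called (log2 fold change 0.048 ± 0.038 SE, adjusted p = 0.287), although voom on the recovered reads called it higher (log2 fold change 0.13, adjusted p = 0.000131), nor was the secreted factor MANF (log2 fold change -0.15 ± 0.062 SE, adjusted p = 0.0635). The protein disulfide isomerase PDIA4 went the other way, from 94.4, 100.5 and 98.3 FPKM in SK-BR-3 to 120.2, 124 and 125 FPKM in SK/EPI (log2 fold change 0.33 ± 0.036 SE, adjusted p = 6.3e-05). Every SK/EPI library of PDIA4 lay above every SK-BR-3 library. With voom the log2 fold changes of CANX (-0.49), PDIA3 (-0.17), PDIA6 (-0.19) and PDIA4 (0.42) also lay higher than in the main fit, so the upward shift was not particular to HSP90B1.

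Of the 5 genes of ER-associated degradation and translocation, 4 were lower and none higher. EDEM1, which hands misfolded glycoproteins over for degradation, was at 24.6, 25.99 and 26.4 FPKM in SK-BR-3 and at 8.97, 8.79 and 8.73 FPKM in SK/EPI, a mean 2.91-fold lower (log2 fold change -1.44 ± 0.037 SE, adjusted p = 1.6e-08). The SK/EPI values spanned a narrow range far below SK-BR-3. HERPUD1, a scaffold of the degradation complex, had a log2 fold change of -1.05, and SEC61B, a subunit of the channel through which proteins enter the ER, one of -1.05. SEL1L, the adaptor of the ubiquitin ligase of this pathway, was lower by less (log2 fold change -0.30 ± 0.05 SE, adjusted p = 0.00082). The ligase itself, SYVN1 (HRD1), was not called (log2 fold change -0.045 ± 0.043 SE, adjusted p = 0.359).

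XBP1 had the lowest fold change of all 49 members. It stood at 160.5, 163 and 161 FPKM in SK-BR-3 and at 23.6, 26.9 and 25.4 FPKM in SK/EPI, with 7714 to 9263 reads in SK-BR-3 libraries and 1401 to 1469 in SK/EPI libraries. Its mean was 6.38-fold lower in SK/EPI (log2 fold change -2.63 ± 0.046 SE, adjusted p = 2.4e-09), and 0.63% of all genes tested had a lower fold change. XBP1 is also known as a gene of luminal breast cells, and of the luminal and HER2 markers above KRT19, ERBB2 and GRB7 were lower in the same comparison while KRT8 and KRT18 were higher; their relation to XBP1 was not tested.

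The sensors did not move together. ERN1, which encodes IRE1, was at 2.29, 2.604 and 2.37 FPKM in SK-BR-3 and at 4.44, 4.69 and 4.497 FPKM in SK/EPI, higher without overlap (log2 fold change 0.70 ± 0.057 SE, adjusted p = 1.2e-05). ATF6 was at 8.34, 8.16 and 8.71 FPKM in SK-BR-3 and at 4.64, 5.06 and 4.22 FPKM in SK/EPI, lower without overlap (log2 fold change -0.74 ± 0.063 SE, adjusted p = 1.4e-05). EIF2AK3, which encodes PERK, was at 8.64, 9.303 and 9.595 FPKM in SK-BR-3 and at 6.3, 5.804 and 6.09 FPKM in SK/EPI, also lower without overlap (log2 fold change -0.53 ± 0.051 SE, adjusted p = 3.5e-05). Of the 3 sensors, then, the kinase that splices XBP1 had more mRNA in SK/EPI and the other two had less.

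The other eIF2α kinases in the list were higher in SK/EPI. EIF2AK1, the heme-regulated kinase HRI, was at 48.6, 54.05 and 54.1 FPKM in SK-BR-3 and at 62.5, 65.96 and 65.1 FPKM in SK/EPI (log2 fold change 0.30 ± 0.048 SE, adjusted p = 0.00061). EIF2AK4, the amino acid sensor GCN2, was at 4.34, 4.86 and 5.08 FPKM in SK-BR-3 and at 6.06, 6.57 and 6.48 FPKM in SK/EPI (log2 fold change 0.36 ± 0.061 SE, adjusted p = 0.00097). Neither gene's groups overlapped. The fourth kinase, EIF2AK2 (PKR), is no member and was named after its values were seen; it was also higher, from 5.69 ± 0.151 to 9.9 ± 0.415 FPKM (SD, n = 3; log2 fold change 0.70 ± 0.045 SE, adjusted p = 2.8e-06). The difference between these rises and the fall of EIF2AK3 was not tested.

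**Figure D2:**
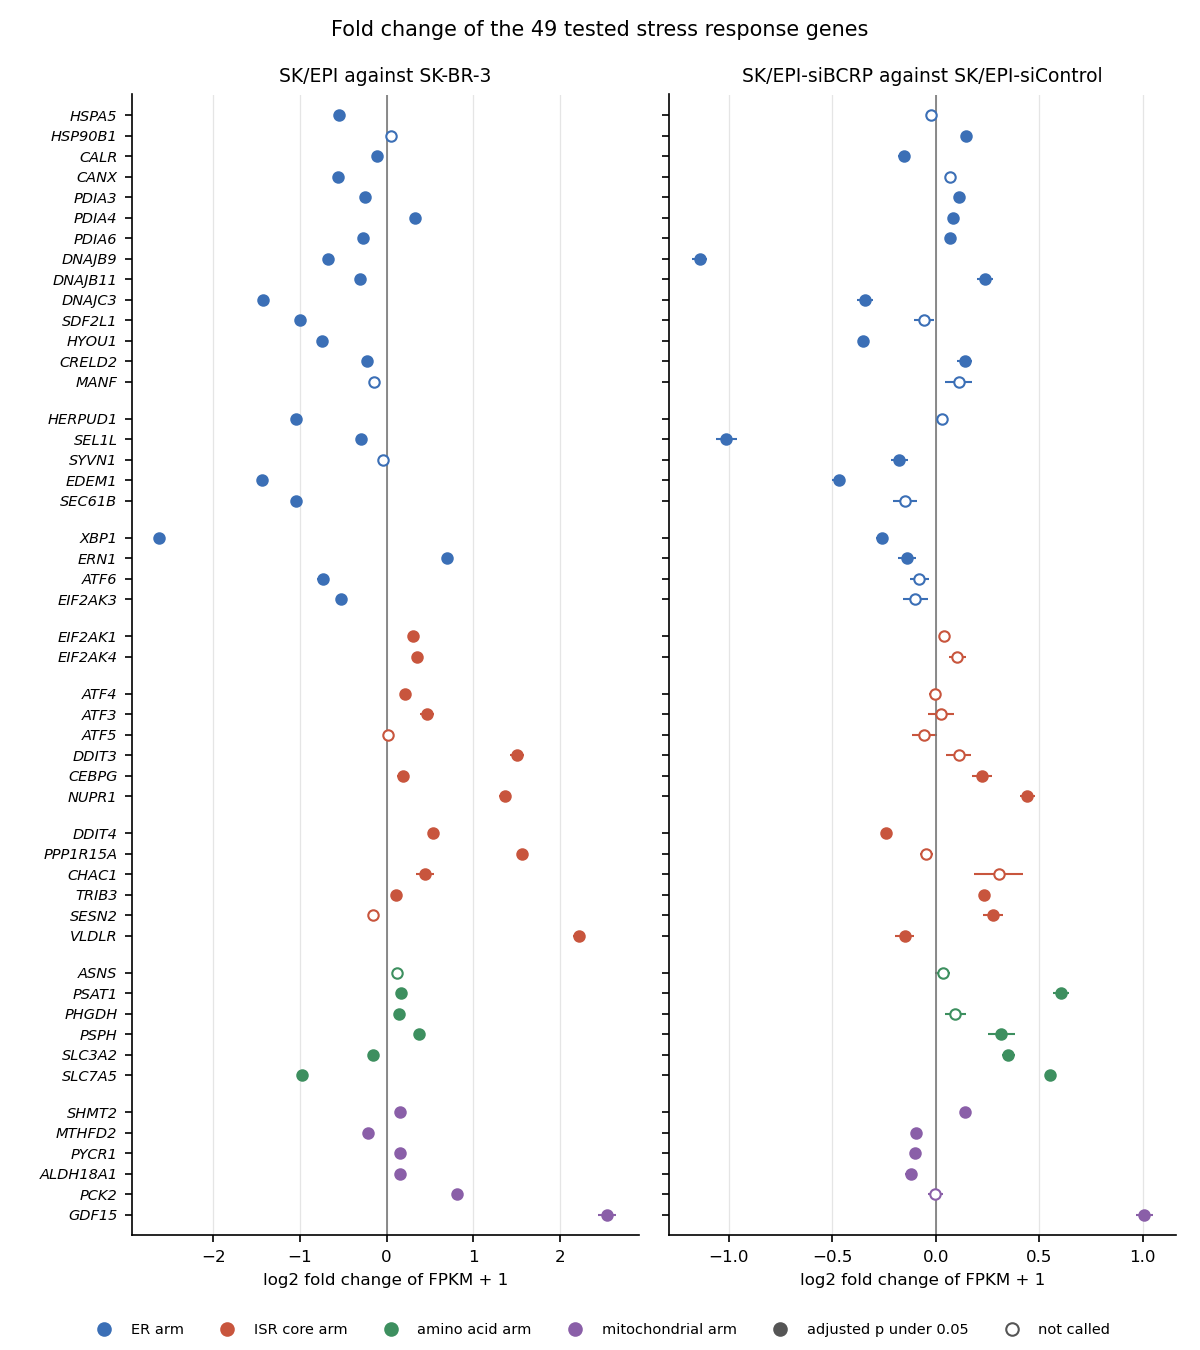
Log2 fold change of FPKM + 1 with its standard error for the 49 tested members, by role from chaperones at the top to mitochondrial genes at the bottom, in both comparisons; filled points have an adjusted p-value under 0.05. On the left XBP1 lies lowest at -2.63 and GDF15 highest at 2.54; on the right DNAJB9 at -1.14 and SEL1L at -1.01 lie lowest and GDF15 at 1.01 highest, on a narrower axis.

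Of the 6 transcription factors of the ISR core arm, 5 were higher in SK/EPI. ATF4 stood at 70.6, 68.2 and 64.4 FPKM in SK-BR-3 and at 76.5, 78.5 and 80.97 FPKM in SK/EPI, a small rise without overlap (log2 fold change 0.21 ± 0.042 SE, adjusted p = 0.00199). ATF3, an early stress-induced factor, was at 3.74, 3.69 and 2.99 FPKM in SK-BR-3 and at 5.57, 4.81 and 5.09 FPKM in SK/EPI (log2 fold change 0.46 ± 0.083 SE, adjusted p = 0.00118). DDIT3, which encodes the pro-apoptotic factor CHOP, was at 2.31, 3.18 and 2.89 FPKM in SK-BR-3 and at 9.84, 9.65 and 9.72 FPKM in SK/EPI, a mean 3.48-fold higher (log2 fold change 1.51 ± 0.083 SE, adjusted p = 1.1e-06). The SK-BR-3 libraries held 48 to 75 reads of DDIT3 and the SK/EPI libraries 228 to 252. In the annotation 39.6% of the exon bases of DDIT3 are shared with other genes, chiefly MARS on the opposite strand, and the library kit is not stated to keep strand, so reads of the overlap cannot be assigned with certainty; MARS itself had a log2 fold change of -0.11.

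NUPR1, a small stress-induced chromatin protein, rose to a similar extent, from 4.61, 4.14 and 3.99 FPKM in SK-BR-3 to 11.96, 11.9 and 13.9 FPKM in SK/EPI (log2 fold change 1.37 ± 0.071 SE, adjusted p = 8.0e-07). CEBPG, the dimer partner of ATF4, was higher by little (log2 fold change 0.19 ± 0.067 SE, adjusted p = 0.0344), and its call was lost without any 1 of the SK/EPI libraries, at an adjusted p of up to 0.09. ATF5 was at 11.2 ± 0.448 FPKM (SD, n = 3) in SK-BR-3 and 11.3 ± 0.374 FPKM (SD, n = 3) in SK/EPI and was not called (log2 fold change 0.019 ± 0.043 SE, adjusted p = 0.704).

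Among the 6 effectors and feedback genes of the ISR, 5 were higher. VLDLR, a lipoprotein receptor that ATF4 is known to raise, was at 0.405, 0.563 and 0.483 FPKM in SK-BR-3 and at 6.17, 5.89 and 5.64 FPKM in SK/EPI, a mean 12.2-fold higher (log2 fold change 2.22 ± 0.064 SE, adjusted p = 2.8e-08). PPP1R15A, which encodes GADD34, the subunit that brings a phosphatase to eIF2α, was at 4.85, 4.87 and 4.702 FPKM in SK-BR-3 and at 15.9, 15.98 and 16.4 FPKM in SK/EPI, a mean 3.35-fold higher (log2 fold change 1.56 ± 0.037 SE, adjusted p = 1.0e-08). Both genes were far apart between the groups, with little spread within them.

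DDIT4 (REDD1), an inhibitor of mTORC1, had a log2 fold change of 0.54, with 41.2% of its exon bases shared with an antisense gene. CHAC1, which degrades glutathione, had one of 0.44 on few reads, 17 to 21 in SK-BR-3 and 31 to 54 in SK/EPI. TRIB3, a pseudokinase that restrains ATF4, was higher by little (log2 fold change 0.11 ± 0.031 SE, adjusted p = 0.0121; 0.0524 without SK/EPI library 2), and SESN2 was not called (log2 fold change -0.15 ± 0.066 SE, adjusted p = 0.0666). The rises in this group were therefore unequal, from 0.11 for TRIB3 to 2.22 for VLDLR on the log2 scale.

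The amino acid arm was split in SK/EPI. Of the serine synthesis enzymes, PSPH was at 4.77, 4.75 and 4.35 FPKM in SK-BR-3 and at 6.19, 6.09 and 6.61 FPKM in SK/EPI (log2 fold change 0.38 ± 0.053 SE, adjusted p = 0.00032), while PSAT1 and PHGDH were higher by little, at log2 fold changes of 0.16 and 0.15, with PHGDH at an adjusted p of 0.0496. Without SK/EPI library 2 the adjusted p was 0.0555 for PSAT1, and that of PHGDH reached 0.168 with 1 library left out, its call being lost without SK-BR-3 library 2 or 3 or SK/EPI library 2 or 3. SLC7A5 (LAT1), the light chain of the large neutral amino acid transporter, was at 164, 172 and 170.5 FPKM in SK-BR-3 and at 82.2, 87.4 and 86.2 FPKM in SK/EPI (log2 fold change -0.98 ± 0.037 SE, adjusted p = 1.2e-07). Each SK/EPI library lay below each SK-BR-3 library. Its heavy chain SLC3A2 was lower by less (log2 fold change -0.16 ± 0.035 SE, adjusted p = 0.0036). ASNS, asparagine synthetase, had 10 to 28 reads in these libraries and was not called (log2 fold change 0.11 ± 0.048 SE, adjusted p = 0.0606). In the annotation 44.6% of its exon bases are shared with AC079781.5 on the same strand, so its reads may be undercounted and its level is uncertain.

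Mitochondrial members were mostly higher. GDF15, a secreted cytokine that marks mitochondrial and integrated stress, was at 2.35, 3.42 and 2.39 FPKM in SK-BR-3 and at 20.5, 21.2 and 19.9 FPKM in SK/EPI, a mean 7.54-fold higher (log2 fold change 2.54 ± 0.1 SE, adjusted p = 1.9e-07). It had the highest log2 fold change of FPKM + 1 among the 49 members, a scale that understates changes of low genes; by the ratio of mean FPKM VLDLR was higher, at 12.2-fold. The GDF15 groups lay far apart. PCK2, the mitochondrial enzyme that makes phosphoenolpyruvate, was at 8.8, 8.53 and 8.56 FPKM in SK-BR-3 and at 15.2, 16.2 and 16.3 FPKM in SK/EPI (log2 fold change 0.81 ± 0.04 SE, adjusted p = 5.6e-07). SHMT2 of mitochondrial folate metabolism and the proline enzymes PYCR1 and ALDH18A1 each had a log2 fold change of 0.16, and the PYCR1 groups overlapped, with a call that was lost (adjusted p up to 0.124) when any library but SK-BR-3 library 1 was left out. MTHFD2, also of the folate pathway, was lower, at 29.6, 31.8 and 31.5 FPKM in SK-BR-3 and 26.3, 26.97 and 26.3 FPKM in SK/EPI (log2 fold change -0.21 ± 0.036 SE, adjusted p = 0.00082), with 33.2% of its exon bases shared with other genes. FGF21, the other mitokine of the list, had 0 reads in SK-BR-3 and up to 2 in SK/EPI and was not tested.

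**Figure D3:**
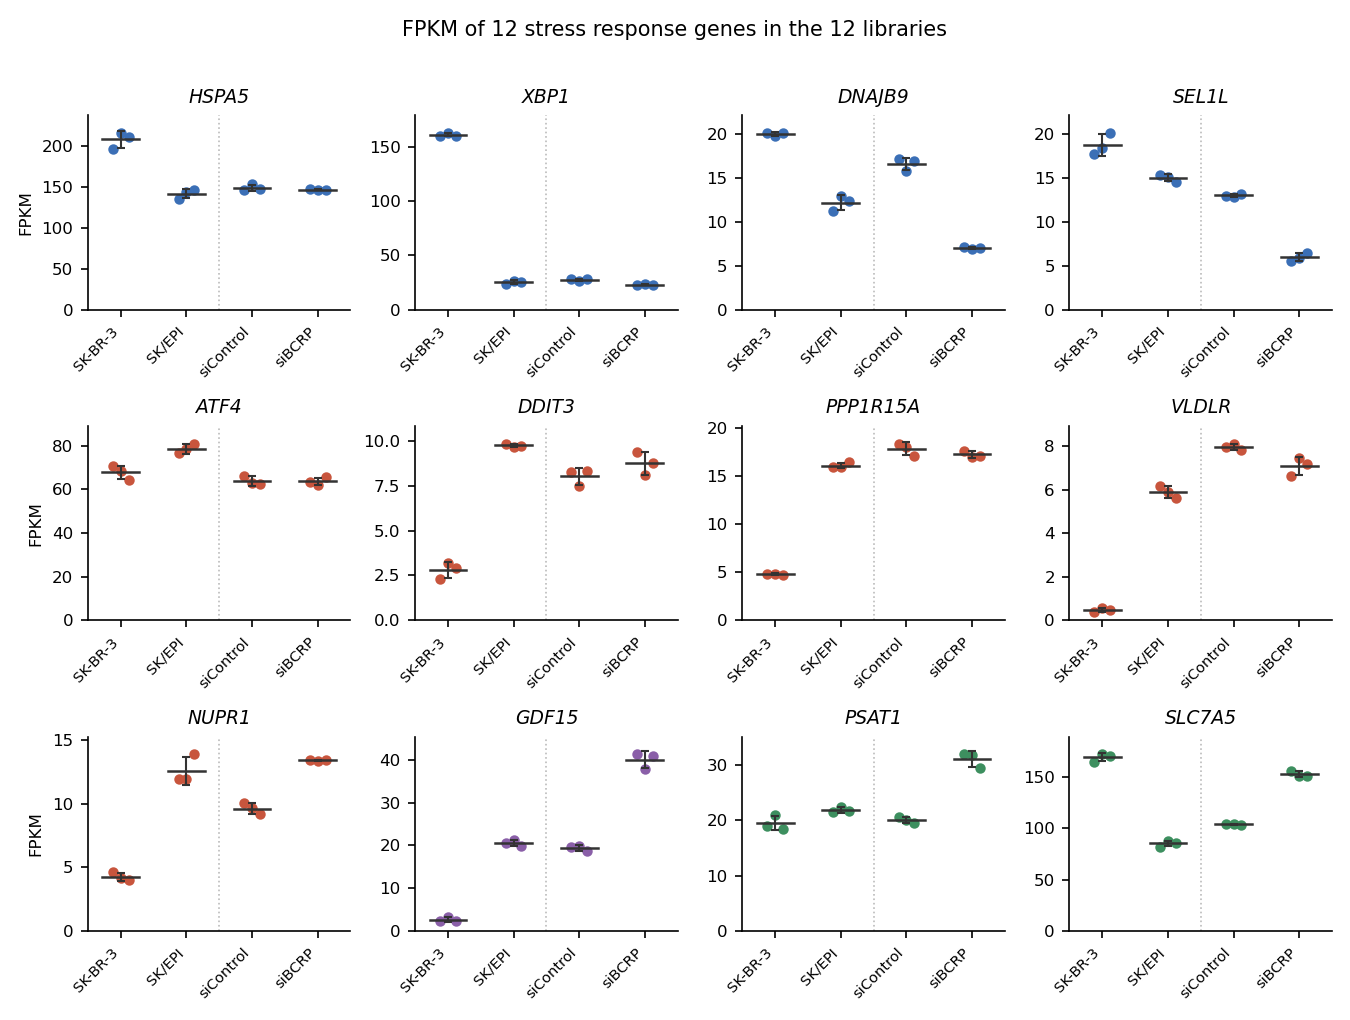
FPKM of 12 members in each of the 12 libraries, with the mean and its standard deviation (n = 3) per group; the dotted line parts the 2 separately normalized tables, and each vertical axis starts at 0. XBP1 is high in SK-BR-3 only, DDIT3, PPP1R15A, VLDLR, NUPR1 and GDF15 are low in SK-BR-3 only, and DNAJB9 and SEL1L are lowest in SK/EPI-siBCRP.

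Other genes of the pathways, listed by function, were counted beside the members. Of 66 such genes tested, 34 were lower and 20 higher in SK/EPI (51.5% and 30.3%), beside 37.0% and 37.9% of all genes tested. Among 25 other genes of ER folding and quality control 15 were lower and 7 higher (60.0% and 28.0%), at a median log2 fold change of -0.31, so this list leaned the same way as the ER arm. Other regulators of eIF2 and the ISR, CEBPB among them, had 5 of 10 lower and 3 higher. The cytosolic tRNA synthetases, many of them ATF4 targets, had 7 of 12 lower and 2 higher. The other amino acid transporters and enzymes had 4 of 7 lower and 2 higher, and the mitochondrial unfolded protein response and folate list 6 of 12 higher and 3 lower. The other amino acid transport and tRNA synthetase genes thus did not lean upward as the ISR core arm did.

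The largest rises in these lists were those of STC2, a secreted glycoprotein induced by ER stress, and of MTHFD1L, the mitochondrial formate-producing enzyme. Mean FPKM of STC2, with the SD over 3 libraries, was 0.0457 ± 0.0126 in SK-BR-3 and 5.56 ± 0.2104 in SK/EPI (log2 fold change 2.65 ± 0.053 SE, adjusted p = 4.9e-09), and that of MTHFD1L was 2.9 ± 0.542 and 11.5 ± 0.242 (log2 fold change 1.69 ± 0.095 SE, adjusted p = 1.3e-06). The largest falls were those of the glutamine transporter SLC1A5 and the disulfide isomerase TXNDC5. SLC1A5 was at 112 ± 2.01 FPKM in SK-BR-3 and 30.7 ± 1.84 FPKM in SK/EPI (log2 fold change -1.84 ± 0.045 SE, adjusted p = 1.3e-08), and TXNDC5 at 8.46 ± 0.717 and 2.11 ± 0.238 FPKM (log2 fold change -1.60 ± 0.079 SE, adjusted p = 5.7e-07).

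The second comparison set SK/EPI-siBCRP against SK/EPI-siControl. ABCG2, the silenced gene, was at 32.5, 32.7 and 33.7 FPKM in SK/EPI-siControl and at 2.84, 3.47 and 2.91 FPKM in SK/EPI-siBCRP, a mean 10.7-fold lower (log2 fold change -3.06 ± 0.059 SE, adjusted p = 5.9e-07), as the labels have it. Of the members, 16 were higher and 14 lower of 49 (32.7% and 28.6%), beside 19.4% and 18.7% of all 16298 genes tested, by the same limma test. In this and all other shares given here, the genes tested were not matched for level to the genes beside them. Changes of low genes are understated on this scale, and the part of this in the shares was not tested. Past a fold change of 2 on the log2(FPKM + 1) scale there were 1 higher and 2 lower members, against 0.0675% and 0.344% of all genes (11 and 56 genes). The member higher was GDF15, and those lower were DNAJB9 and SEL1L.

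By arm, the amino acid arm had 4 of 6 members higher and none lower, with a median log2 fold change of 0.33. The ER arm had 9 of 23 lower and 6 higher (median -0.080), the ISR core arm 4 of 14 higher and 2 lower (median 0.073), and the mitochondrial arm 3 of 6 lower and 2 higher (median -0.050). The median of all genes was -0.004. Averaged over its 6 members, the amino acid arm was at 3.65, 3.65 and 3.62 in log2(FPKM + 1) in SK/EPI-siControl and at 3.98, 3.97 and 3.95 in SK/EPI-siBCRP, so that all SK/EPI-siBCRP libraries lay above all SK/EPI-siControl libraries. The averages of the other arms did not overlap either. That of the ER arm was lower, at 4.87 to 4.90 in SK/EPI-siControl and 4.73 to 4.75 in SK/EPI-siBCRP, and that of the ISR core arm higher, at 3.724 to 3.749 and 3.799 to 3.843. The mitochondrial average was also higher, at 4.46 to 4.47 and 4.60 to 4.61, opposite in sign to the arm's median of -0.050. In that arm GDF15 had a log2 fold change of 1.01, and the other tested members lay between -0.12 and 0.14. The rise of the average is thus not a rise shared by the arm.

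The siRNA sequences are shown because an siRNA can also lower transcripts that pair with its seed, bases 2 to 8 of the strand loaded into the silencing complex. The study lists 2 siRNAs against BCRP and neither its text nor the labels say which was used for RNA-seq. Their guide strands, with the seed in capitals, are complementary to positions 1368 to 1392 and 1417 to 1441 of the ABCG2 transcript of 4479 bases:
siBCRP#1-Lower: aUAACCAGcugauucaaaguauccc
siBCRP#2-Lower: uAAUGAUGuccaagaagaagucugc

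A match to the seed of siBCRP#1 (CTGGTTA) was found in the 3′ UTR of the longest coding transcript of 9.4% of 12927 genes tested. It was found in 20.1% of the genes lower and 4.8% of the genes higher in SK/EPI-siBCRP, and in 26 of the 53 genes lower by at least 2-fold (49.1%). Genes with a match had a median log2 fold change of -0.093 and genes without one of 0.014. For the seed of siBCRP#2 (CATCATT) the shares were 13.8% of all genes, 16.8% of those lower, 11.1% of those higher and 13.2% of those lower by at least 2-fold. These shares take no account of the length of the 3′ UTR, and the search was added after the values were seen.

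Of the 49 members tested, CANX, PDIA6, SEL1L, CEBPG and EDEM1 held a match to the siBCRP#1 seed in the 3′ UTR. That is 10.2%, near the 9.4% of all genes. SEL1L and EDEM1 were lower, PDIA6 and CEBPG higher, and CANX was not called. The match was found in 14.3% of the lower and 12.5% of the higher members. The median log2 fold change was 0.068 for members with a match and 0.026 for those without. SEL1L held 2, which begin 1240 and 4046 bases after the stop codon and are printed with the match in capitals, because SEL1L is one of the members that fell by at least 2-fold:
SEL1L, first match: caggattgtCTGGTTAaatagtatg
SEL1L, second match: attccacctCTGGTTAtcctgtatg

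DNAJB9, the other member that fell by at least 2-fold, held no match to this seed in its transcript of 2715 bases and held the siBCRP#2 seed match only outside its 3′ UTR. Without the 5 members with a match, 14 of 44 were higher and 12 lower. The part of these matches in the falls of SEL1L and EDEM1 was not tested.

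Within the ER arm the chaperones moved apart after BCRP silencing, 6 of 14 higher and 4 lower. DNAJB9 stood at 17.1, 15.9 and 16.9 FPKM in SK/EPI-siControl and at 7.099, 6.91 and 7.0 FPKM in SK/EPI-siBCRP, a mean 2.38-fold lower (log2 fold change -1.14 ± 0.036 SE, adjusted p = 3.1e-06). Its groups lay far apart, and 0.2% of all genes tested had a lower fold change. HYOU1 (-0.35), DNAJC3 (-0.34) and CALR (-0.15) were the other chaperones with lower log2 values. Their partner HSPA5 was at 146, 153 and 147 FPKM in SK/EPI-siControl and 148, 146 and 146 FPKM in SK/EPI-siBCRP, with overlap and no call (log2 fold change -0.022 ± 0.024 SE, adjusted p = 0.523).

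DNAJB11, a BiP co-chaperone, rose most among the chaperones, from 16.02, 16.2 and 14.7 FPKM in SK/EPI-siControl to 18.8, 18.8 and 18.3 FPKM in SK/EPI-siBCRP (log2 fold change 0.24 ± 0.04 SE, adjusted p = 0.00299), with 23.2% of its exon bases shared with other genes. HSP90B1 (0.15), CRELD2 (0.14), PDIA3 (0.11), PDIA4 (0.081) and PDIA6 (0.070) also had higher log2 values, each by less than 0.2. The calls of CRELD2, PDIA4 and PDIA6 were lost when any of 4, 5 and 5 of the 6 libraries was left out, at adjusted p-values of up to 0.0739, 0.0922 and 0.108. CANX, SDF2L1 and MANF were not called, at 0.068, -0.057 and 0.11. DNAJB9 and DNAJB11, both partners of BiP, thus had opposite signs; the difference between them was not tested.

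In ER-associated degradation SEL1L fell most, from 12.9, 12.9 and 13.2 FPKM in SK/EPI-siControl to 5.56, 5.84 and 6.47 FPKM in SK/EPI-siBCRP, a mean 2.18-fold lower (log2 fold change -1.01 ± 0.051 SE, adjusted p = 1.3e-05). EDEM1 was at 9.58, 9.54 and 9.499 FPKM in SK/EPI-siControl and 6.697, 6.504 and 6.65 FPKM in SK/EPI-siBCRP (log2 fold change -0.47 ± 0.031 SE, adjusted p = 4.0e-05). The groups of both genes were apart. SYVN1, the ligase that SEL1L holds in the membrane, was lower by less (log2 fold change -0.18 ± 0.039 SE, adjusted p = 0.0113), and HERPUD1 (log2 fold change 0.029 ± 0.023 SE, adjusted p = 0.378) and SEC61B (log2 fold change -0.15 ± 0.058 SE, adjusted p = 0.085) were not called.

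XBP1 was at 28.2, 26.6 and 28.2 FPKM in SK/EPI-siControl and at 22.6, 23.2 and 23.1 FPKM in SK/EPI-siBCRP, lower without overlap (log2 fold change -0.26 ± 0.029 SE, adjusted p = 0.00048). ERN1 was at 5.08, 5.09 and 5.09 FPKM in SK/EPI-siControl and 4.38, 4.496 and 4.71 FPKM in SK/EPI-siBCRP (log2 fold change -0.14 ± 0.042 SE, adjusted p = 0.0357), a call that was lost without any library but SK/EPI-siBCRP library 3 (adjusted p up to 0.0923). ATF6 was at 5.09, 5.26 and 5.23 and 4.62, 4.92 and 5.06 FPKM (log2 fold change -0.080 ± 0.045 SE, adjusted p = 0.206). Both ATF6 and EIF2AK3, at 4.88, 4.92 and 4.32 and 4.62, 4.18 and 4.19 FPKM (log2 fold change -0.10 ± 0.061 SE, adjusted p = 0.247), missed the threshold. All 4 log2 fold changes in this group were below 0.

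Among the members at the head of the integrated stress response, the kinases EIF2AK1, EIF2AK3 and EIF2AK4 and the factors ATF4, ATF3, ATF5 and DDIT3 were not called after BCRP silencing. ATF4 was at 66.2, 63.05 and 62.2 FPKM in SK/EPI-siControl and at 63.4, 62.1 and 65.5 FPKM in SK/EPI-siBCRP, with overlapping groups (log2 fold change -0.0038 ± 0.031 SE, adjusted p = 0.939). ATF3 was at 4.37, 5.23 and 4.75 and 4.69, 5.08 and 4.84 FPKM (log2 fold change 0.024 ± 0.063 SE, adjusted p = 0.795), and DDIT3 at 8.25, 7.47 and 8.33 and 9.36, 8.09 and 8.78 FPKM (log2 fold change 0.11 ± 0.06 SE, adjusted p = 0.186). Their groups overlapped too, and so did those of ATF5 (log2 fold change -0.054 ± 0.06 SE, adjusted p = 0.517).

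EIF2AK1 was at 75.8, 75.2 and 75.5 FPKM in SK/EPI-siControl and at 76.6, 77.5 and 78.99 FPKM in SK/EPI-siBCRP (log2 fold change 0.040 ± 0.02 SE, adjusted p = 0.153). EIF2AK4 was at 5.72, 5.68 and 5.96 and 6.09, 6.38 and 6.44 FPKM (log2 fold change 0.11 ± 0.04 SE, adjusted p = 0.0752). In both genes the siBCRP libraries lay above the siControl libraries by a margin that did not pass the adjusted threshold; with voom on the recovered reads EIF2AK4 passed it (adjusted p = 0.0254). EIF2AK2 (PKR), which is no member, was called higher, from 15.3 ± 0.499 to 18.3 ± 0.267 FPKM (SD, n = 3; log2 fold change 0.24 ± 0.03 SE, adjusted p = 0.00077).

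Of the other factors and effectors, 4 were higher and 2 lower. NUPR1 was at 10.02, 9.63 and 9.17 FPKM in SK/EPI-siControl and at 13.4, 13.3 and 13.4 FPKM in SK/EPI-siBCRP, higher without overlap (log2 fold change 0.44 ± 0.036 SE, adjusted p = 9.7e-05). SESN2, a sestrin that restrains mTORC1 when leucine is short, was at 1.105, 1.09 and 1.06 FPKM in SK/EPI-siControl and at 1.59, 1.49 and 1.498 FPKM in SK/EPI-siBCRP (log2 fold change 0.28 ± 0.048 SE, adjusted p = 0.00374). DDIT4 was at 124, 121 and 120.4 FPKM in SK/EPI-siControl and at 106, 102 and 100.4 FPKM in SK/EPI-siBCRP (log2 fold change -0.24 ± 0.025 SE, adjusted p = 0.00032). SESN2 and DDIT4, which both act against mTORC1, were thus higher and lower, respectively.

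TRIB3 (0.23) and CEBPG (0.22) also had higher log2 values, and VLDLR a lower one (-0.15, adjusted p = 0.0368 by limma with Benjamini-Hochberg adjustment), whose call was lost without any library but SK/EPI-siBCRP library 2 (up to 0.105). PPP1R15A had 17.9 ± 0.668 FPKM (SD, n = 3) in SK/EPI-siControl and 17.3 ± 0.342 FPKM (SD, n = 3) in SK/EPI-siBCRP and was not called (log2 fold change -0.045 ± 0.033 SE, adjusted p = 0.332). CHAC1, on 24 to 65 reads, was not called either (log2 fold change 0.30 ± 0.12 SE, adjusted p = 0.0816).

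Of the 6 members of the amino acid arm, 4 rose after BCRP silencing. The other amino acid transport and synthesis genes did not lean this way, with 1 of 7 higher and 2 lower. PSAT1, the transaminase of serine synthesis, was at 20.6, 19.99 and 19.5 FPKM in SK/EPI-siControl and at 31.9, 31.8 and 29.4 FPKM in SK/EPI-siBCRP, a mean 1.55-fold higher (log2 fold change 0.61 ± 0.038 SE, adjusted p = 3.2e-05). SLC7A5 was at 104, 104 and 103 FPKM in SK/EPI-siControl and at 156, 151 and 151 FPKM in SK/EPI-siBCRP, a mean 1.47-fold higher (log2 fold change 0.55 ± 0.021 SE, adjusted p = 5.3e-06). Its partner chain SLC3A2 was at 73.1, 69.3 and 68.2 and 90.0, 87.99 and 91.3 FPKM (log2 fold change 0.35 ± 0.03 SE, adjusted p = 0.00013). In all 3 genes each siBCRP library lay above each siControl library.

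PSPH was at 4.94, 5.93 and 5.24 FPKM in SK/EPI-siControl and at 6.77, 7.35 and 6.65 FPKM in SK/EPI-siBCRP (log2 fold change 0.32 ± 0.066 SE, adjusted p = 0.00833). PHGDH, the first enzyme of serine synthesis, was at 2.197 ± 0.0769 FPKM (SD, n = 3) and 2.41 ± 0.0556 FPKM (SD, n = 3) and was not called (log2 fold change 0.095 ± 0.05 SE, adjusted p = 0.178), and ASNS had 15 to 21 reads in a library and was not called (log2 fold change 0.034 ± 0.035 SE, adjusted p = 0.489). Annotated pseudogenes carry the names of PSAT1, PSPH, SLC7A5 and ASNS, and how reads with several positions were counted is not given in the sources used here. The same limit holds for XBP1, PDIA3, ATF4 and MTHFD2 of the other arms, which also have pseudogenes named for them. Exon bases shared with other genes made up 29.7% for PYCR1, 25.2% for PDIA6 and 23.7% for ATF5.

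Of the mitochondrial arm GDF15 stood apart. It was at 19.7, 19.8 and 18.6 FPKM in SK/EPI-siControl and at 41.3, 37.8 and 40.99 FPKM in SK/EPI-siBCRP, a mean 2.07-fold higher (log2 fold change 1.01 ± 0.041 SE, adjusted p = 6.4e-06), and 99.93% of all genes tested had a lower fold change. SHMT2 was higher by little (log2 fold change 0.14 ± 0.026 SE, adjusted p = 0.00434). ALDH18A1, which makes the precursor of proline, was at 19.1, 19.7 and 20.1 FPKM in SK/EPI-siControl and at 18.3, 17.8 and 17.9 FPKM in SK/EPI-siBCRP (log2 fold change -0.12 ± 0.027 SE, adjusted p = 0.0122), and PYCR1 (-0.10) and MTHFD2 (-0.10) had lower log2 values of about the same size, that of PYCR1 losing its call without SK/EPI-siBCRP library 3 or SK/EPI-siControl library 1 or 3 (adjusted p up to 0.0608). PCK2 was not called (log2 fold change -0.0031 ± 0.036 SE, adjusted p = 0.958). FGF21, with 1 to 2 reads in SK/EPI-siControl and 4 to 6 in SK/EPI-siBCRP, was not tested.

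Of the 66 other pathway genes, 30 were higher and 9 lower after BCRP silencing (45.5% and 13.6%), beside 19.4% and 18.7% of all genes tested. The cytosolic tRNA synthetases had 10 of 12 higher and none lower at a median log2 fold change of 0.17, and the mitochondrial unfolded protein response and folate list 9 of 12 higher and none lower at a median of 0.16. The other eIF2 and ISR regulators had 6 of 10 higher and 2 lower (60.0% and 20.0%), and the other amino acid transport list 1 of 7 higher and 2 lower (14.3% and 28.6%). The other ER list had 4 of 25 higher and 5 lower (16.0% and 20.0%), near the shares of all genes. The tRNA synthetase list thus leaned upward here, and downward in SK/EPI against SK-BR-3.

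The largest rises were those of CLPP, the mitochondrial matrix protease, from 22.1 ± 0.283 to 33.5 ± 1.93 FPKM (SD, n = 3) (log2 fold change 0.58 ± 0.041 SE, adjusted p = 5.8e-05), and of STC2, from 6.37 ± 0.226 to 9.62 ± 0.419 FPKM (log2 fold change 0.53 ± 0.043 SE, adjusted p = 0.0001). The largest falls were those of SLC1A5, from 33.1 ± 0.965 to 17.01 ± 0.923 FPKM (log2 fold change -0.92 ± 0.041 SE, adjusted p = 9.2e-06), and of SEC24D, a coat protein of vesicles leaving the ER, from 3.76 ± 0.389 to 2.18 ± 0.0207 FPKM (log2 fold change -0.58 ± 0.068 SE, adjusted p = 0.00057). SLC1A5 was among the largest falls in both comparisons and STC2 among the largest rises in both.

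Set side by side, the calls of the 49 members fell into all combinations. The 2 comparisons share no library, but the cells of the second are those of the resistant line of the first. Higher in both were 8 members, CEBPG, GDF15, NUPR1, PDIA4, PSAT1, PSPH, SHMT2 and TRIB3 (16.3%, beside 8.07% of the 15152 genes tested in both). Lower in both were also 8, CALR, DNAJB9, DNAJC3, EDEM1, HYOU1, MTHFD2, SEL1L and XBP1 (16.3%, beside 7.19% of genes). Opposite calls were found for 11 members. Those lower in SK/EPI and higher after BCRP silencing were CRELD2, DNAJB11, PDIA3, PDIA6, SLC3A2 and SLC7A5 (12.2%, beside 8.51%), and those higher in SK/EPI and lower after silencing were ALDH18A1, DDIT4, ERN1, PYCR1 and VLDLR (10.2%, beside 8.51%).

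The transporter pair SLC7A5 and SLC3A2 was thus lower in the resistant line and higher after BCRP silencing. For SLC7A5 the mean was 168.9 FPKM in SK-BR-3 and 85.3 FPKM in SK/EPI in the first table, and 103.7 FPKM in SK/EPI-siControl and 152.6 FPKM in SK/EPI-siBCRP in the second. GDF15 in contrast was higher in both, at 2.72 FPKM in SK-BR-3 and 20.5 FPKM in SK/EPI, and at 19.4 FPKM in SK/EPI-siControl and 40.0 FPKM in SK/EPI-siBCRP. DDIT3, PPP1R15A and ATF4, higher in SK/EPI, were not called after silencing, and whether the 2 comparisons differ was not tested for any gene.

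**Figure D4:**
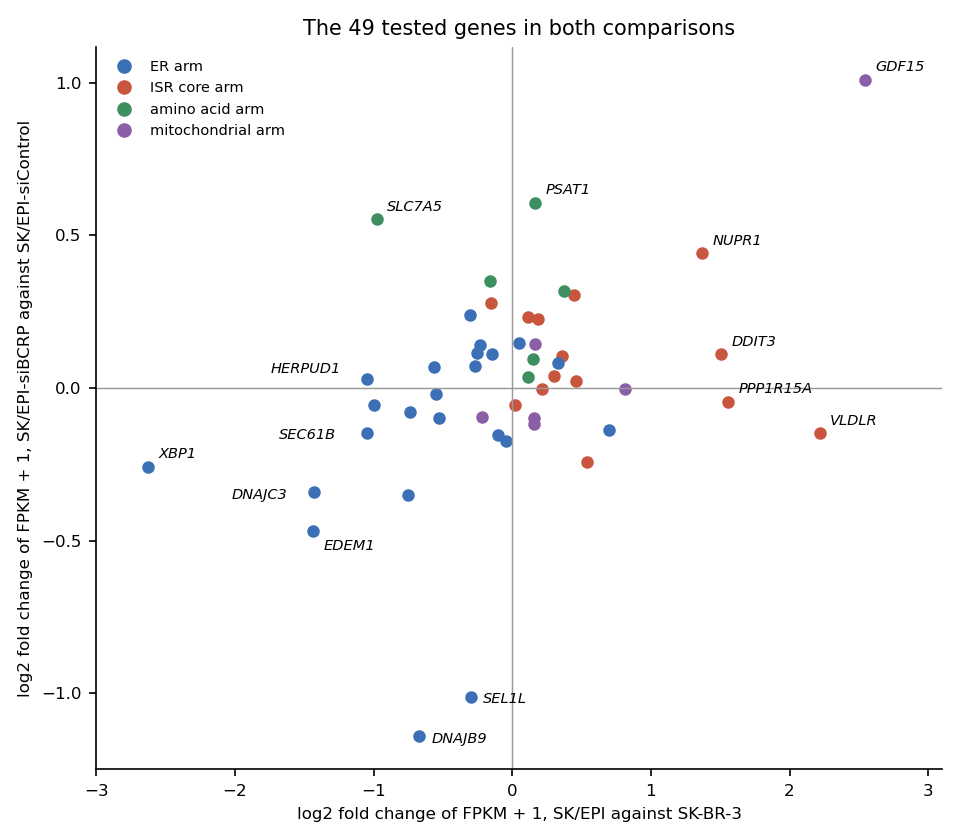
Log2 fold change of FPKM + 1 of the 49 tested members in SK/EPI against SK-BR-3 (horizontal) and in SK/EPI-siBCRP against SK/EPI-siControl (vertical), coloured by arm; named genes moved by at least 1 on the horizontal or 0.5 on the vertical axis. XBP1 lies at the far left, VLDLR and GDF15 at the far right, SLC7A5 at upper left, and DNAJB9 and SEL1L at the bottom.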

How the data were processed

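RNA of 12 libraries was poly-A selected, made into libraries with a NEBNext Ultra kit and sequenced by NovoGene. The tables deposited by the authors, 1 per comparison, hold FPKM of 58735 genes and state no unit; multiplied by the gene's merged exon length in GENCODE 29, each value was a whole number of reads (100% of values, tolerance 0.05 reads), and the FPKM were scaled within each table. The submitters' processing notes name hg38, HISAT2 2.0.5, featureCounts 1.5.0-p3 and DESeq2 1.16.1 without a role. Groups were taken from the labels.

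For each table, limma 3.58.1 (eBayes with a trend, R 4.3.3) was fitted with the group alone to log2(FPKM + 1) over genes that reached 10 reads, scaled to the median library size, in 3 libraries and 15 reads in all, and p-values were adjusted by Benjamini-Hochberg over all genes tested (threshold 0.05). A fold change on this scale understates changes of low genes; folds of means are ratios of mean FPKM. SD is over 3 libraries. Alternatives were a pseudocount of 0.1, no filter, at least 1 FPKM in every library, equal sums of FPKM, median-of-ratios scaling, a replicate block, voom on the recovered reads, and each library left out. Replicates differed by more than counting noise (chi-square per degree of freedom 1.62 to 3.95).

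The members and lists were chosen with earlier results of these data known. Genes given with every library's value were the sensors, XBP1, the eIF2α kinases, ATF4, ATF3, DDIT3, and per role and comparison the largest rise and fall past the threshold without overlap. Other genes given so (HSPA5, PPP1R15A and PCK2, and in 1 comparison DNAJB9, NUPR1, EDEM1, SLC7A5, SLC3A2 and PSPH) were added after their values were seen. Scripts were tested on simulated data.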

Additional observations from a re-analysis of the deposited data

How the results depend on the processing

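No called member changed direction under any alternative. Of members not called, SYVN1 in SK/EPI was at 0.038 with voom, and after silencing HERPUD1 and ATF3 were at -0.0027 and -0.0033 with equal sums of FPKM and ATF4 and PCK2 at 0.0002 and 0.0006 with median-of-ratios scaling. With each library left out, the log2 fold change ranged from -0.0045 to 0.049 for ATF5 in SK/EPI and, after silencing, from -0.024 to 0.023 for ATF4, from -0.028 to 0.079 for ATF3 and from -0.029 to 0.023 for PCK2. With at least 1 FPKM in every library, 3592 genes were higher in SK/EPI instead of 6002, since fewer genes were tested. Of the arm medians in SK/EPI against SK-BR-3, that of the ISR core arm (0.40) was 0.48 with a pseudocount of 0.1, 0.33 with at least 1 FPKM in every library and 0.57 with voom; voom also gave -0.47 for the ER arm, 0.26 for the amino acid arm and 0.25 for the mitochondrial arm, and the pseudocount 0.17 for the amino acid arm. Voom thus moved every arm median upward in this comparison. Reads on genes, by which voom was scaled, were 92.8 to 95.4% of the total that FPKM divides by in SK/EPI and 99.8 to 101% in SK-BR-3. The part of this in the voom values was not tested. With each library left out the ISR core median was 0.374 to 0.408 and the mitochondrial median 0.15 to 0.198. The mitochondrial median after BCRP silencing (-0.050) was -0.003 without a filter and -0.081 with equal sums of FPKM. Leaving out 1 library, in at least 1 of 6 cases each, ended the call of CALR, CEBPG, PHGDH, PSAT1, PYCR1 or TRIB3 in SK/EPI and of CRELD2, ERN1, PDIA4, PDIA6, PYCR1 or VLDLR after silencing, at adjusted p-values given beside them, brought in ASNS, MANF or CANX, and left the other calls as they were. Deviations of same-numbered libraries had correlations of -0.0485 to -0.002 in SK/EPI against SK-BR-3 and 0.0092 to 0.0551 after silencing. Those of differently numbered libraries were -0.0109 to 0.0536 and -0.05 to 0.0266. With 3 libraries in a group, such small values cannot exclude that the numbers pair them. With a replicate block the members higher and lower in SK/EPI were 21 and 21, CALR and PHGDH losing their call and MANF gaining one. With the block after silencing, PDIA4, PDIA6, ERN1, VLDLR and PYCR1 lost their calls and CHAC1 gained one. Without a filter the calls of CALR, CEBPG, PHGDH and PYCR1 in SK/EPI and of PDIA4, PDIA6, CRELD2 and VLDLR after silencing were lost. With equal sums of FPKM CEBPG lost its call and MANF gained one in SK/EPI, and after silencing PDIA4, PDIA6 and CRELD2 lost theirs and SEC61B gained one. Median-of-ratios scaling ended the call of PHGDH and brought in MANF in SK/EPI, and a pseudocount of 0.1 brought in ASNS there. With voom CALR (log2 fold change -0.019) lost its call and HSP90B1 (0.13) and ASNS (0.77) gained one in SK/EPI, and after silencing PDIA6 lost its call and CANX, SEC61B and EIF2AK4 gained one. Results for members with few reads (ASNS, CHAC1, FGF21) are limited by these low counts. For ASNS, 44.6% of the exon bases are shared with another gene on the same strand, and the part of this overlap in its low count was not tested.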
